A study of Mus musculus with 21 samples.

Results

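The copine family of the mouse comprises the 9 genes Cpne1 to Cpne9, which were looked up by symbol among the 24047 genes counted in SMB21 cells. All 9 were in the table. The family was chosen by measured values of these data, because in cells with a hairpin against Hdac1, Cpne2 was higher and Cpne9 lower than in cells with a control hairpin. The values of that comparison therefore describe the choice and are given without a p-value. The count of members passing the threshold there is given as a description only. SMB21 is a mouse medulloblastoma cell line, studied here as a model of the sonic hedgehog (SHH) form of this cerebellar tumour. The groups were DMSO, the solvent, for 2 h or 24 h, JNJ for 2 h or 24 h, and 3 hairpin groups. JNJ is quisinostat, an inhibitor of histone deacetylases (HDACs), whose dose is not given in the sources used here. The hairpin groups received a virus that codes for a short hairpin RNA against luciferase (shLuc), Hdac1 (shHdac1) or Hdac2 (shHdac2) and were then selected with puromycin, which the drug groups were not said to receive. All groups are the same line, and the labels name 1 target per hairpin group without its sequence. Each of the 7 groups has 3 libraries, numbered 1 to 3. Whether the 3 were separate cultures is not in the labels, so a p-value measures only how these libraries vary, possibly for technical reasons.

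Copines are soluble proteins that bind phospholipid membranes when calcium rises. They carry a pair of C2 domains at the amino end, which hold calcium and lipid, and an A domain like that of von Willebrand factor at the other end, which binds partner proteins. Several are found in neurons, where they take part in neurite growth and in the shape of dendritic spines. Class I HDACs, Hdac1 and Hdac2 among them, remove acetyl groups from histones.

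Total counts were 23094799 to 39341784 per library, so that the 3 counts used as a floor are 0.0763 to 0.13 CPM (read counts scaled to library size) in a library, a limit of counting error only. Levels below are CPM on library totals scaled over all 21 libraries, and values are listed in the order of replicates 1, 2 and 3. The labelled cell type was checked by 9 markers of granule progenitors and SHH medulloblastoma, and all 9 exceeded 1 CPM in every library. Of 18 markers of other cells, 17 had counts, and their sum was 23.1 to 88.2 CPM. Hbb-b1, a haemoglobin gene of red cells, had 0 counts in all 21 libraries, and Aif1 and Cx3cr1 of microglia and Mog of oligodendrocytes had a median of 0. The shRNA targets matched the labels: Hdac1 was at 87.4, 94.1 and 100.6 CPM in shLuc and at 32.4, 28.3 and 30.5 in shHdac1, and Hdac2 was at 303.8, 298.6 and 344.4 CPM in shLuc and at 48.8, 47.5 and 53.4 in shHdac2. Replicate 3 stood apart in some groups. The number of genes called in shHdac1 against shLuc went from 102 to 1512 without shLuc replicate 3.

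RefSeq promoter sequences (build GRCm38.p6, 250 bases before to 50 after the start of the gene) were found for 6 members: Cpne1, Cpne2, Cpne4, Cpne5, Cpne8 and Cpne9. The 4 shown belong to the pair on which the family was chosen, Cpne2 and Cpne9, and to Cpne5 and Cpne8, which moved with JNJ. Each is written 5′ to 3′ on the gene's strand, and capitals mark the GC box letters GGGCGG or their reverse complement CCGCCC, searched on both strands.
Cpne2, chr8:94532778-94533077, plus strand: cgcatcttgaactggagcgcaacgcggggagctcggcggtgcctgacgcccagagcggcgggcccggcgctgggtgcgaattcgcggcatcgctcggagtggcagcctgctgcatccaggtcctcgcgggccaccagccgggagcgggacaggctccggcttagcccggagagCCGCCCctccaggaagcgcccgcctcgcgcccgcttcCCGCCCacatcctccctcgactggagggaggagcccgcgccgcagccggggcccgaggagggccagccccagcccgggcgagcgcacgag
Cpne9, chr6:113282057-113282356, plus strand: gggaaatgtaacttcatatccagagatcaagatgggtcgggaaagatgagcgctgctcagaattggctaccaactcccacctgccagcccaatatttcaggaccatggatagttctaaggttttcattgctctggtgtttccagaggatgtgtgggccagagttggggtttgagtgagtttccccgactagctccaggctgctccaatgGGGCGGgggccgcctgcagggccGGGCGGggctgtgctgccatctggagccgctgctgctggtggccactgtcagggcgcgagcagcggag
Cpne5, chr17:29237741-29238040, minus strand: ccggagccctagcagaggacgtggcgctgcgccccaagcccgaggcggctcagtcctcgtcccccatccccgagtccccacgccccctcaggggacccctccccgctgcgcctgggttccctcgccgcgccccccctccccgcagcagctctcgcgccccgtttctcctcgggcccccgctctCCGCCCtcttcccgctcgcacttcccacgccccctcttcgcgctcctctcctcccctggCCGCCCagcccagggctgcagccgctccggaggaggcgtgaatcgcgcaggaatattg
Cpne8, chr15:90679339-90679638, minus strand: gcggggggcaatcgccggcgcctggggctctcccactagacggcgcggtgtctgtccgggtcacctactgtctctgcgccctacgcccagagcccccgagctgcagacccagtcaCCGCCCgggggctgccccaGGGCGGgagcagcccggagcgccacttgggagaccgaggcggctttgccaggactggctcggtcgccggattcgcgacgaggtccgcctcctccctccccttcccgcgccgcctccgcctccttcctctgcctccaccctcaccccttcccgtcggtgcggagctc

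Each of the 4 promoters holds 2 GC boxes, a motif found in 35.7% of the 32851 promoters of the table. The Cpne2 window is 76.0% G and C with 39 CpG dinucleotides, and the windows of Cpne5 and Cpne8 are 74.7% and 73.7% with 32 each. The Cpne9 window differs from them. It is 58.7% G and C, has 11 CpG dinucleotides, and holds the CCAAT box (CCAAT or ATTGG) 3 times, where the other windows shown have none. The CCAAT box is in 37.4% of all promoters, whose median G and C content is 52.7% with 7 CpG dinucleotides. These matches are descriptions of letters and not sites of a factor.

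In the solvent and control groups, the family was carried by Cpne1, Cpne2 and Cpne3, with Cpne9 far below. Group means of the other 5 genes were at most 1.81 CPM there, the highest being that of Cpne4 in DMSO 2 h. Cpne1, a copine reported in neurite growth of rat progenitor cells, was at 128.6, 133.8 and 286.1 CPM in DMSO 2 h and at 158.8, 159.7 and 172.2 in shLuc. Cpne3, whose human protein binds the receptor tyrosine kinase ERBB2, was at 103.7, 68.7 and 74.4 CPM in DMSO 2 h and at 95.8, 97.4 and 92.7 in shLuc. Divided by exonic length, as CPM per kb, Cpne1 held 60.2% of the family in DMSO 2 h and 47.9% in shLuc, Cpne2 17.3% and 30.2%, Cpne3 18.8% and 17.5%, and Cpne9 2.76% and 3.52%. The lengths are from GENCODE vM21 and not from the annotation of the counts.

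**Figure D1:**
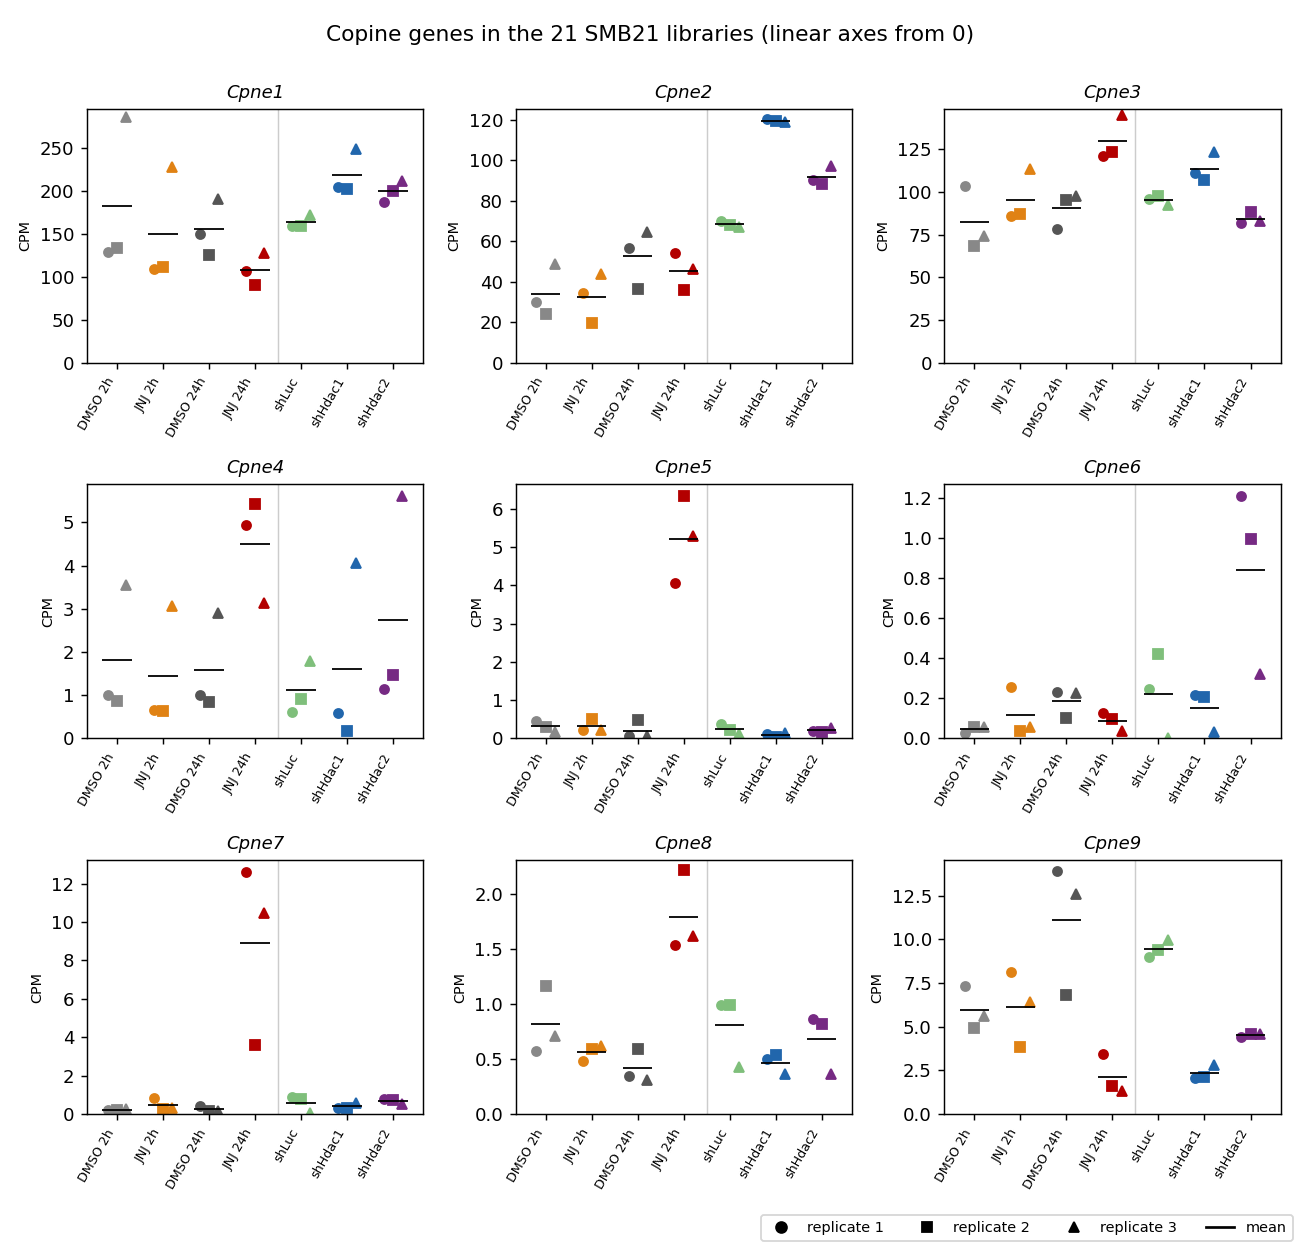
Level of each copine gene in every library, in CPM, by group. Points are the 3 libraries of a group and short lines their mean. In the JNJ 24 h libraries Cpne5 and Cpne7 stand above all other libraries, and Cpne9 is low there and in shHdac1.

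Copines responded to JNJ at 24 h and not detectably at 2 h. At 24 h, 4 of the 8 members that passed the filter on low counts rose, 1 fell and 3 were not called by edgeR's quasi-likelihood test (Benjamini-Hochberg adjusted over all genes, threshold 0.05), where 33.1% of the 14467 genes tested were called, 18.1% higher and 15.1% lower. The median log2 change over the 8 was 1.03, against 0.01 over all genes. Cpne7 passed the filter only through the JNJ 24 h libraries and so had to differ, which the count and the median include. No support is drawn from them. Cpne6 did not pass. The test had group as its only term. With the replicate number as a block, 7 of the 8 were called, where 45.8% of all genes were.

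Cpne7, in mouse known from a secreted role in tooth-forming tissue, rose most. It was at 0.429, 0.155 and 0.170 CPM in DMSO 24 h and at 12.6, 3.58 and 10.5 CPM in JNJ 24 h. The groups did not overlap, and the fitted change was 35.4-fold (log2 5.15, SE 0.67, adjusted p = 0.000196), or 54.0-fold without DMSO 24 h replicate 1. Since Cpne7 entered the test only through JNJ 24 h, no support is drawn from its p. Cpne5, a copine found in neurons of the mouse brain, was at 0.0572, 0.489 and 0.0568 CPM in DMSO 24 h and at 4.06, 6.33 and 5.29 in JNJ 24 h. All JNJ libraries lay above all DMSO libraries, 25.4-fold by the fit (log2 4.67, SE 0.76, adjusted p = 0.000732). DMSO 24 h replicates 1 and 3 were under the floor, and without replicate 2 the fitted change was 86.2-fold. Such folds of nearly silent genes rest on few counts.

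Cpne8 rose from 0.343, 0.592 and 0.312 CPM in DMSO 24 h to 1.54, 2.22 and 1.62 in JNJ 24 h. Unlike Cpne7, it was over the count minimum in all 4 drug groups. The change was 4.32-fold (log2 2.11, SE 0.44, adjusted p = 0.00321), with no overlap. Cpne3 rose the least. It was at 78.4, 95.6 and 97.97 CPM in DMSO 24 h and at 121, 123.7 and 145.1 in JNJ 24 h, which do not overlap. The change was 1.45-fold (log2 0.54, SE 0.19, adjusted p = 0.0445). Leaving out any 1 of the 6 libraries ended the Cpne3 call, with an adjusted p of 0.165, 0.0918 and 0.0792 without DMSO 24 h replicates 1, 2 and 3 and of 0.0692, 0.083 and 0.154 without those of JNJ 24 h, and so did testing with no filter on low counts (0.0644).

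Cpne9 was the member that fell. It was at 13.9, 6.80 and 12.6 CPM in DMSO 24 h and at 3.41, 1.62 and 1.31 CPM in JNJ 24 h. Every JNJ 24 h library was below every DMSO 24 h library, and the log2 change was -2.37 (SE 0.43, adjusted p = 0.00139), 5.15-fold lower. Within replicate numbers 1, 2 and 3 the log2 differences were -1.88, -1.79 and -2.85, taken on CPM + 0.5. DMSO 24 h held more Cpne9 than DMSO 2 h, at 7.36, 4.93 and 5.59 CPM, and the JNJ 24 h libraries were also all below these.

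Of the members not called at 24 h, Cpne2 changed least, from 56.8, 36.2 and 64.5 CPM to 54.2, 35.9 and 46.4 CPM (log2 -0.19, SE 0.32, adjusted p = 0.689). The groups overlapped. Cpne1 was at 150.2, 125.2 and 190.7 CPM in DMSO 24 h and at 106.3, 90.8 and 127.7 in JNJ 24 h (log2 -0.50, SE 0.34, adjusted p = 0.278). It was lower within each replicate number, and with the number as a block, where 45.8% of all genes were called, it was called too (log2 -0.49, SE 0.17, adjusted p = 0.0348). Cpne1 shares 239 exonic bases on the same strand with Rbm12, an RNA-binding protein gene, in GENCODE vM21, where the counting rule is unknown, and its counts are uncertain. Rbm12 fell at 24 h (log2 -0.61, SE 0.19, adjusted p = 0.0228), a call lost without DMSO 24 h replicate 3 (0.077) or JNJ 24 h replicate 1 (0.0675) or 2 (0.0851).

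Cpne4, known in mouse from retinal ganglion cells, was at 1.00, 0.850 and 2.90 CPM in DMSO 24 h and at 4.93, 5.41 and 3.13 CPM in JNJ 24 h. The groups did not overlap, but replicate 3 was highest among the DMSO libraries and lowest among the JNJ libraries. The change was not called (log2 1.53, SE 0.72, adjusted p = 0.124). With the replicate number as a block it was (log2 1.96, SE 0.52, adjusted p = 0.00838), and also without all libraries numbered 3 (log2 2.48, adjusted p = 0.00502), where 23.3% of genes were called. The log2 differences within numbers 1, 2 and 3 were 1.86, 2.13 and 0.10. Cpne6, a neuronal copine of hippocampal spines in mouse, had 8, 4 and 8 counts in DMSO 24 h and 5, 3 and 1 in JNJ 24 h, and gave no test.

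**Figure D2:**
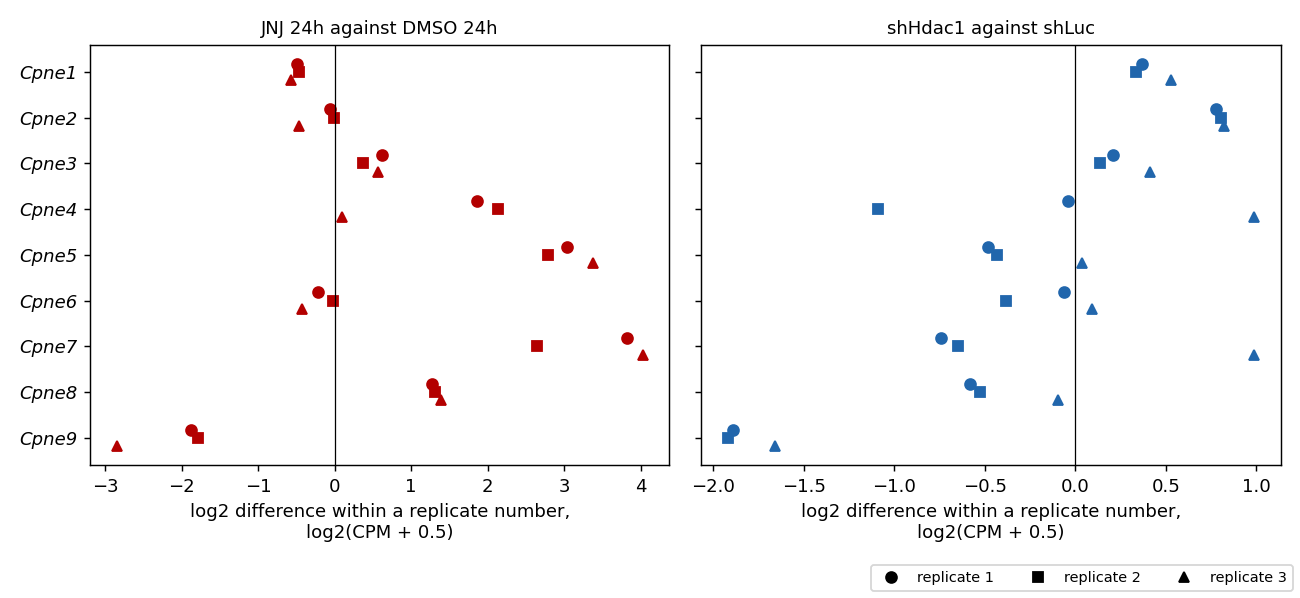
Log2 difference of each copine gene between libraries with the same replicate number, on log2(CPM + 0.5), for JNJ 24 h against DMSO 24 h and for shHdac1 against shLuc. Each point is 1 replicate number. At 24 h the 3 points of Cpne9 lie from -2.85 to -1.79, and Cpne4 has 1 point at 0.10 and the others at 1.86 and 2.13.

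The JNJ 24 h libraries also had less of the labelled cell type's markers. The 9 progenitor and SHH markers summed to 1617 to 2354 CPM, against 3275 to 3512 in DMSO 24 h. At 24 h 4 of these 9 fell and 0 rose, where 15.1% of all genes were called lower and 18.1% higher. The markers of other cells summed to 28.6 to 49.1 CPM, against 24.3 to 35.8, which overlap. Of 9 tested 1 rose and 1 fell, beside the same shares of all genes. The part of either list in the copine changes was not tested. In bulk RNA, fewer cells of a type and less RNA per cell cannot be told apart.

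After 2 h of JNJ none of the 8 members was called by edgeR's test, where 13.7% of genes were, 9.11% higher and 4.59% lower. None had an unadjusted p under 0.05, and DESeq2 called 0. Cpne9 was at 8.12, 3.83 and 6.44 CPM, within the spread of DMSO 2 h (log2 0.04, SE 0.41, adjusted p = 0.961), with a sign that turned with upper-quartile scaling or library totals. Cpne5 was at 0.229, 0.515 and 0.207 CPM against 0.460, 0.306 and 0.177 (log2 -0.01, SE 0.70, adjusted p = 0.997). Cpne7 was at 0.858, 0.258 and 0.295 CPM against 0.230, 0.195 and 0.266, where 1 library of JNJ was high (log2 1.04, SE 0.63, adjusted p = 0.299). The remaining 5 members had log2 changes between -0.53 and 0.22. Their standard errors were 0.19 to 0.72, so that modest changes were not detectable.

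The difference between the 24 h and the 2 h effect was tested as an interaction. It was called for 4 of the 8 members, 3 higher and 1 lower, where 4.24% of all genes were called, 2.51% higher and 1.73% lower. The 4 include Cpne7, which entered the test only through JNJ 24 h, so no support is drawn from the count or from the p of Cpne7. These were Cpne5 (log2 4.67, SE 1.03, adjusted p = 0.0265), Cpne7 (4.11, SE 0.89, 0.0246), Cpne8 (2.64, SE 0.62, 0.0344) and Cpne9 (-2.41, SE 0.59, 0.0394), and each call by edgeR's adjusted p was lost without some single libraries. The Cpne5 call was lost without DMSO 2 h replicate 1 (0.0605) or 2 (0.0598), DMSO 24 h replicate 1 (0.0641) or 3 (0.0597), or JNJ 24 h replicate 2 (0.0608) or 3 (0.0694), and its log2 value was 6.47 without DMSO 24 h replicate 2. The Cpne7 call was lost without DMSO 2 h replicate 2 (0.0551), DMSO 24 h replicate 2 (0.0505) or 3 (0.0655), JNJ 2 h replicate 2 (0.0523), or JNJ 24 h replicate 1 (0.0546) or 3 (0.0706). Leaving out DMSO 24 h replicate 1 gave Cpne7 a log2 value of 4.72, and leaving out JNJ 2 h replicate 1 gave 4.87. The Cpne8 call was lost without DMSO 2 h replicate 2 (0.0891), DMSO 24 h replicate 1 (0.0965) or 3 (0.0856), JNJ 2 h replicate 1 (0.0556) or 2 (0.0635), or JNJ 24 h replicate 1 (0.0527), 2 (0.0855) or 3 (0.0769). The Cpne9 call was lost without DMSO 2 h replicate 1 (0.0559), 2 (0.0963) or 3 (0.0653), DMSO 24 h replicate 1 (0.103) or 3 (0.0856), JNJ 2 h replicate 1 (0.0694), or JNJ 24 h replicate 2 (0.0954) or 3 (0.102). With all libraries kept it was also lost with library totals (0.0584) and with upper-quartile scaling (0.0516). In each case the direction stayed. The other 4 members, Cpne1 to Cpne4, had log2 values between -0.22 and 1.83 and were not called.

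**Figure D3:**
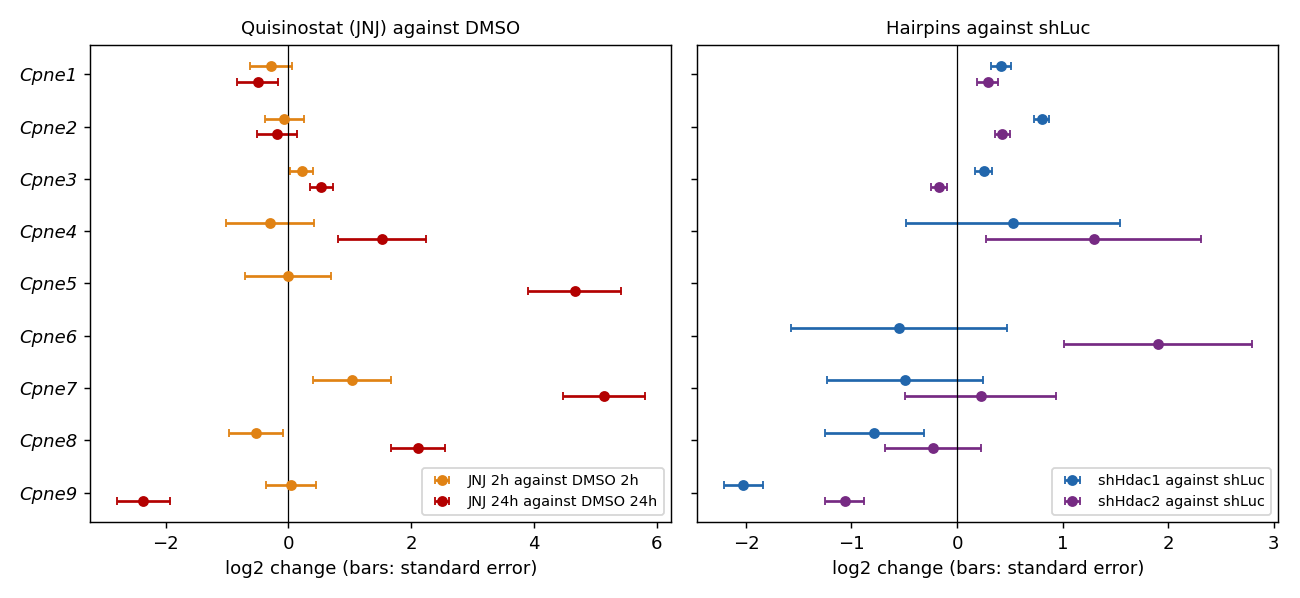
Fitted log2 change of each tested copine gene with its standard error (bars), for JNJ against DMSO at 2 h and 24 h and for each hairpin against shLuc, where shHdac1 against shLuc chose the family. At 24 h of JNJ, Cpne5, Cpne7 and Cpne8 lie above 0 and Cpne9 below, and at 2 h no gene was called.

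Time in solvent alone moved no member past the threshold. In DMSO 24 h against DMSO 2 h, 0 of 8 members and 0% of all genes were called by edgeR's test, 1 member and 1417 genes had an unadjusted p under 0.05, and DESeq2 called 0 members and 16 genes. The member was Cpne9 (log2 0.93, SE 0.41, adjusted p = 0.507), higher at 24 h with overlapping groups.

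With the hairpin against Hdac1, the comparison that chose the family, Cpne2 and Cpne9 stood apart. Cpne2, a widely expressed copine, was at 70.1, 68.0 and 67.2 CPM in shLuc and at 120.5, 119.3 and 119.1 in shHdac1. The replicates of each group lay within 3 CPM of each other, and the fitted ratio was 1.75-fold (log2 0.80). Cpne9 was at 8.99, 9.42 and 9.98 CPM in shLuc and at 2.05, 2.12 and 2.81 in shHdac1, 4.07-fold lower (log2 -2.02). 2 of 8 members passed the threshold used elsewhere (3 with a replicate block and 3 with DESeq2), where 0.749% of all genes did (3.84% and 2.96%). The family was chosen because Cpne2 and Cpne9 differed in this comparison. The count is therefore no sign of enrichment over all genes by any of these methods, and nothing is read from it. Cpne1 was at 205, 201.9 and 249 CPM against 158.8, 159.7 and 172.2 in shLuc, with no overlap (log2 0.42), and Cpne3 at 111, 107 and 123.4 against 95.8, 97.4 and 92.7 (log2 0.25). Cpne4, Cpne6, Cpne7 and Cpne8 overlapped between the groups, with log2 values between -0.78 and 0.53. Cpne5 had at most 0.373 CPM in the hairpin libraries.

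With the hairpin against Hdac2, Cpne2 and Cpne9 lay between shLuc and shHdac1. Cpne2 was at 90.3, 88.5 and 97.2 CPM (log2 0.43 against shLuc, SE 0.07) and Cpne9 at 4.39, 4.59 and 4.57 CPM (log2 -1.07, SE 0.18). Neither overlapped with shLuc or with shHdac1. These libraries are compared with the same shLuc libraries as shHdac1, so no test is given for the pair. Of the other 7 members, 6 were tested and none was called by edgeR's test, where 1.68% of genes were (0.654% higher and 1.03% lower), 1 had an unadjusted p under 0.05 and DESeq2 called 0. These tests share shLuc with the comparison that chose the family and are not independent of it. The one with the unadjusted p was Cpne1, at 187, 200.2 and 212 CPM (log2 0.29, SE 0.10, adjusted p = 0.188). Without all libraries numbered 3, Cpne1 (adjusted p = 0.000693), Cpne3 (0.0158) and Cpne6 (0.00236) were called, in a setting where 44.2% of all genes were. Cpne6 entered that test only through shHdac2, where it is high, so no support is drawn from its p.

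Cpne3 and Cpne6 had unlike values with the 2 hairpins. Cpne3 was at 81.8, 88.3 and 83.2 CPM in shHdac2, below all shLuc libraries (log2 -0.17, SE 0.08, adjusted p = 0.325), where shHdac1 lay above them. Directly between the hairpins, the log2 difference of Cpne3 was 0.43, higher in shHdac1, given as a description since shHdac1 chose the family. Cpne6 had 39, 28 and 8 counts in shHdac2, 6, 11 and 0 in shLuc and 7, 5 and 1 in shHdac1 (shHdac2 against shLuc log2 1.90, SE 0.89, adjusted p = 0.342). Between the hairpins, shHdac1 was also above shHdac2 in Cpne2 (log2 0.37) and below it in Cpne9 (-0.96), and 3 of 8 members passed the threshold where 2.06% of genes did (4 and 6.51% with a replicate block), from which nothing is read. The SHH markers summed to 3335 to 3506 CPM with the luciferase hairpin, 2706 to 2855 CPM with the Hdac1 hairpin and 2539 to 2760 CPM with the Hdac2 hairpin. Markers of other cells summed to 49.0 to 70.7, 23.1 to 88.2 and 40.3 to 87.6 CPM in the same order. Their part was not tested.

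Across all 7 groups, Cpne2 ran from JNJ 2 h (mean 32.6 CPM) and DMSO 2 h (34.2) through JNJ 24 h (45.5) and DMSO 24 h (52.5) to shLuc (68.4), shHdac2 (92.0) and shHdac1 (119.6). The 4 drug groups overlapped with their neighbours in this order, and the steps from DMSO 24 h upward did not. Cpne9 ran from JNJ 24 h (2.11) and shHdac1 (2.33), which overlapped, to shHdac2 (4.51), then to DMSO 2 h (5.96) and JNJ 2 h (6.13), which overlapped, and to shLuc (9.46) and DMSO 24 h (11.1), which did too. The low end of Cpne9 thus held 1 drug group and 1 hairpin group, and that of Cpne2 only drug and solvent groups at 2 h. Drug and hairpin libraries differ in virus and selection as well, so levels across them are set side by side without a test.

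Replicate number went with the level of some members. Cpne1 was highest in replicate 3 in 7 of 7 groups, at 1.08 to 2.18 times the mean of replicates 1 and 2. Cpne4 was highest there in 6 of 7 groups, at 0.605 to 10.7 times. In shHdac1, Cpne4 was at 0.591, 0.166 and 4.05 CPM. What the number stands for is not given in the sources used here.

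The summed level of the family per kb was 87.1 ± 16.7 CPM per kb (SD, n = 3) in DMSO 24 h and 79.9 ± 10.8 in JNJ 24 h, within the spread. Over the same step the share of Cpne1 was 50.4% ± 1.28 and 38.3% ± 2.40, that of Cpne3 18.9% ± 4.36 and 29.01% ± 3.28, that of Cpne7 0.122% ± 0.0746 and 4.48% ± 2.09, and that of Cpne9 4.54% ± 1.19 and 0.955% ± 0.478. In the hairpin groups the sum was 96.7 ± 1.17 in shLuc, 134.7 ± 9.35 in shHdac1 and 113.8 ± 5.36 in shHdac2, with Cpne1 at 47.9%, 45.9% and 49.7% of it, Cpne2 at 30.2%, 38.04% and 34.5% and Cpne9 at 3.52%, 0.619% and 1.43%. Shares of a sum depend on each other, and were not tested.

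Other calcium-dependent membrane proteins were taken as lists of related genes. Of 12 annexins, proteins that bind membranes with calcium through another fold, 7 were tested, and at 24 h 4 rose and 0 fell (median log2 1.07), beside 33.1% of all genes called. Anxa11 (log2 2.04, SE 0.33), Anxa5 (1.96, SE 0.32), used as a probe for exposed phosphatidylserine, and Anxa4 (1.30, SE 0.24) had edgeR adjusted p of 0.00066, 0.000732 and 0.0016. At 2 h 0 of 7 were called by edgeR, where 13.7% of all genes were. DESeq2 also called 0, and 0 had an unadjusted p under 0.05. The interaction was called for Anxa11 (log2 2.22, adjusted p = 0.0204) and Anxa4 (1.59, adjusted p = 0.0239), beside 4.24% of all genes. It was lost for Anxa11 without DMSO 2 h replicate 2 (0.0568), DMSO 24 h replicate 3 (0.0556) or JNJ 24 h replicate 3 (0.0633). For Anxa4 it was lost without DMSO 2 h replicate 2 (0.0615), DMSO 24 h replicate 1 (0.0644) or 3 (0.0631), or JNJ 24 h replicate 2 (0.0621) or 3 (0.0663).

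Of 36 other C2-domain proteins, 34 were tested, and at 24 h 12 rose, 2 fell and 20 were not called (median log2 0.81), 14 of 34 beside 33.1% of all genes. Those with the lowest p were Unc13b, a priming factor of vesicle release (log2 3.41, SE 0.27, adjusted p = 1.55e-05), Rasa4, a calcium-dependent Ras inhibitor (4.04, SE 0.42, 6.37e-05), and Syt17, of the synaptotagmin family (4.91, SE 0.52, 6.37e-05). Syt17 had 3, 3 and 4 counts in DMSO 24 h and 89, 80 and 96 in JNJ 24 h. No drug library outside JNJ 24 h had over 9, so it passed the filter only through JNJ 24 h. No support is drawn from the p of Syt17, here or in the interaction. Otof, with 38, 24 and 7 counts in JNJ 24 h and at most 8 in any other drug library, also entered only through JNJ 24 h. Unc13c, with 10, 8 and 8 counts there and at most 10 elsewhere, entered largely through the same libraries. The counts and the median of this list include these genes as tested. No support is drawn from those of 24 h or of the interaction. At 2 h 5 of 34 rose and 0 fell (median 0.40), beside 13.7% of all genes called. The count was 1 without DMSO 2 h replicate 1 or JNJ 2 h replicate 1 and 2 without DMSO 2 h replicate 2. Esyt1, which tethers endoplasmic reticulum to the plasma membrane, rose by log2 1.24 (SE 0.26, adjusted p = 0.00757). Syt11 rose by log2 0.84 (SE 0.20, adjusted p = 0.017), and was lost without DMSO 2 h replicate 1 (0.0903) or 2 (0.0816) or JNJ 2 h replicate 1 (0.0729). The interaction was called for 5 of 34, all higher, beside 4.24% of all genes. Lowest in p were Unc13b (log2 3.47, adjusted p = 0.00143), Syt17 (4.87, 0.00773) and Rasal1 (3.40, 0.0154). The Rasal1 call was lost without JNJ 24 h replicate 3 (0.0519), and its log2 value was 4.11 without JNJ 2 h replicate 1.

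Of 10 genes whose proteins are reported to bind copines, 2 rose after 24 h, 1 fell and 7 did not pass (median log2 -0.23), which is near the 33.1% of all genes called, and at 2 h edgeR and DESeq2 called 0, with 0 at an unadjusted p under 0.05, though 2 were called without JNJ 2 h replicate 3. At 24 h the count of 3 was 1 without DMSO 24 h replicate 1 or 3 or JNJ 24 h replicate 2. Rdx, which encodes radixin, a linker of actin and membrane, fell (log2 -0.85, SE 0.17, adjusted p = 0.00242). Ntrk2, the BDNF receptor gene, rose (log2 1.67, SE 0.47, adjusted p = 0.0164), and was lost without DMSO 24 h replicate 1 (0.0677) or 3 (0.0678) or JNJ 24 h replicate 2 (0.0579). Erbb2 rose (log2 1.88, SE 0.66, adjusted p = 0.0432), and was lost without DMSO 24 h replicate 1 (0.137) or 3 (0.139) or JNJ 24 h replicate 1 (0.0649), 2 (0.136) or 3 (0.0554), and its log2 value was 2.72 without DMSO 24 h replicate 2. With shHdac2 against shLuc, 1 of the 7 annexins was lower and edgeR called 0 genes of the other lists, beside 1.68% of all genes. An unadjusted p under 0.05 was found for 7 of 33 C2-domain proteins and 3 of 10 partners, beside 2158 of 13612 genes. DESeq2 called 0 and 2 of these lists, beside 4.31% of all genes.

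**Figure D4:**
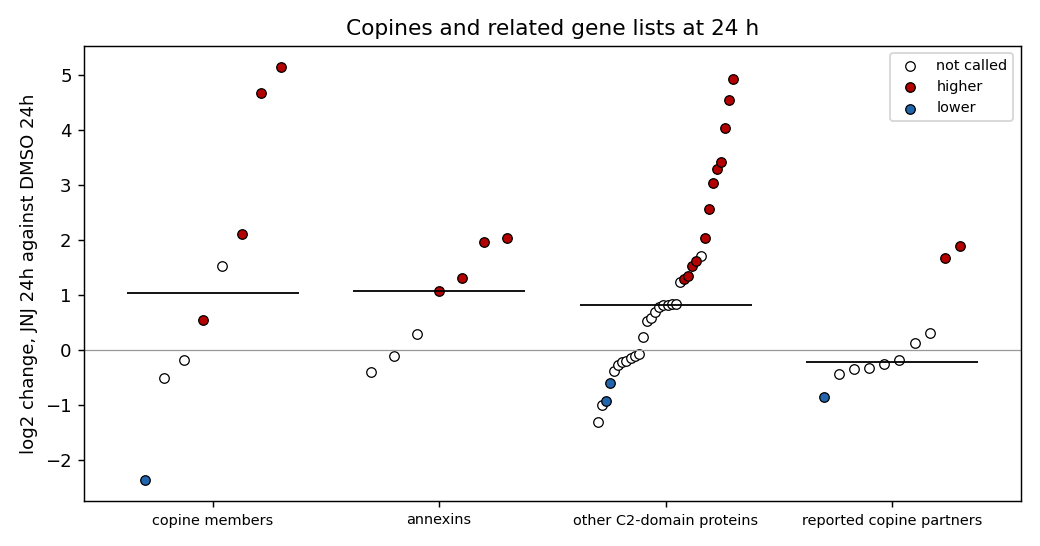
Log2 change at 24 h of JNJ against DMSO for every tested gene of the copine family and of the 3 related lists. Each point is a gene, filled points passed the threshold and lines are medians. Of the annexins 4 of 7 passed, of other C2-domain proteins 14 of 34, of reported copine partners 3 of 10 and of copines 5 of 8. Beside these, 33.1% of all genes passed. Cpne7, Syt17 and Otof entered the test only through JNJ 24 h, and Unc13c largely did.

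The nearest protein-coding neighbours of Cpne2 and Cpne9 were also looked up. Next to Cpne2, Nlrc5, an activator of MHC class I genes, rose at 24 h (log2 2.53, SE 0.48, adjusted p = 0.00185), and Fam192a was not called (-0.19, SE 0.19, 0.477). Next to Cpne9, Brpf1, of a histone acetyltransferase complex, fell (log2 -0.52, SE 0.18, adjusted p = 0.036), a call lost without DMSO 24 h replicate 1 (0.133) or 3 (0.0614) or JNJ 24 h replicate 2 (0.0869) or 3 (0.12). Mtmr14, a lipid phosphatase gene on its other side, was not called (log2 0.13, SE 0.15, adjusted p = 0.562). Against shLuc, edgeR called none of these 4 with either hairpin, and none had an unadjusted p under 0.05.

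Over the 21 libraries, genes with a pattern most like Cpne2, among 10738 with a mean of at least 5 CPM, were Tnpo2 (Pearson r = 0.954 of log2(CPM + 0.5)) and Map2k1 (0.931). For Cpne9 they were Dgkb (0.834), Cdk14 (0.827) and Zic4 (0.798). These libraries fall into a drug and a hairpin series and share groups and replicate numbers, so the values rank genes and no p is given.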

How the data were processed

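RNA was sequenced from 21 SMB21 libraries. Per the labels' protocols, libraries were made with a stranded mRNA kit and read single-end. Per the submitters' processing notes, STAR 2.5.1b was the aligner and mm9 the genome. The authors deposited raw counts per gene symbol, as whole numbers. Sources used here do not state the annotation, the strand counted or the handling of reads with several matches. Counts of paralogs and overlapping genes are therefore uncertain.

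Separate models were fitted for the 12 drug and the 9 hairpin libraries (edgeR 4.0.16 on limma 3.58.1, R 4.3.3), with TMM scaling, filterByExpr (minimum count 10, total 15; 14467 and 13612 genes left) and quasi-likelihood F tests with group as the only term. Tests were two-sided and adjusted by Benjamini-Hochberg over all genes, with a threshold of 0.05. A standard error is the absolute log2 change over the square root of F. Printed CPM use TMM over all 21 libraries. The code was tested on simulated data. Alternatives were DESeq2 1.42.0, other scaling, no filter, all libraries in one fit, a replicate block and leaving out libraries. Libraries with the same number were taken as paired where the correlations of their deviations from the group means exceeded 0.1. For replicates 1, 2 and 3 these were 0.566, 0.656 and 0.609 at 24 h, 0.461, 0.253 and 0.464 for shHdac2 and shLuc, and 0.305, 0.245 and 0.352 for shHdac1 and shLuc. Between unlike numbers the highest correlation was -0.178 at 24 h, 0.418 for shHdac2 and shLuc and 0.322 for shHdac1 and shLuc. In the hairpin groups it thus exceeded some same-number values, so the number does not clearly pair those libraries. The members, lists and comparisons were chosen with earlier results of these data known. Genes named are the 9 members, Hdac1, Hdac2, Rbm12, the neighbours of Cpne2 and Cpne9, the 3 called genes of each list with the lowest p in each drug comparison, and the 3 genes most like Cpne2 and Cpne9. Some genes that this rule names are not reported here. The reference (GRCm38) is not the build of the counts and was used for promoters, exonic lengths and neighbours only.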

Additional observations from a re-analysis of the deposited data

Results flagged for a closer look

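The interaction test of edgeR called a difference between the 24 h and the 2 h effect of JNJ for 4 copines, of which Cpne7 entered the test only through the JNJ 24 h libraries, where it is high. The log2 values of the difference were 4.67 for Cpne5, 4.11 for Cpne7, 2.64 for Cpne8 and -2.41 for Cpne9, and each call was lost without some single libraries, and that of Cpne9 also with library totals or upper-quartile scaling, as given above. Cpne3 lay above shLuc in every shHdac1 library (log2 0.25) and below shLuc in every shHdac2 library (log2 -0.17). That opposite movement was not tested, and both comparisons share the shLuc libraries.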

How the results depend on the processing

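No member that was called changed direction under any setting. Over all settings, 585 values of single members in tested comparisons kept their side of the threshold, 42 lost the call and 9 gained one. The number of members with a called interaction was 4, and 0 to 4 when libraries were left out in turn and 0 without all libraries numbered 3, a setting added after the data were seen. The number of the other 7 members called in shHdac2 against shLuc was 0, and 3 without all libraries numbered 3, where 6052 genes (44.2%) were called in place of 229. The 3 include Cpne6, which entered that test only through shHdac2, where it is high. Left-out libraries moved the log2 value of shHdac1 against shLuc between 0.79 and 0.83 for Cpne2 and between -2.18 and -1.94 for Cpne9. With a replicate block, 7 members were called at 24 h in place of 5, beside 45.8% of all genes in place of 33.1%, and the block changed no other call of a member in the drug comparisons. At 2 h the numbers did not pair the libraries (correlations -0.01, 0.65 and 0.59), nor in DMSO 24 h against 2 h (-0.22, 0.52 and 0.58), and with a block 0 members were called in each. Over all genes, the count called at 2 h was 1982, and 650 to 3455 over the settings, at 24 h 4791 and 3393 to 8948, for the interaction 614 and 3 to 2132, for DMSO 24 h against 2 h 0 and 0 to 108, for shHdac1 against shLuc 102 and 0 to 6045, for shHdac2 against shLuc 229 and 12 to 6052, and for shHdac1 against shHdac2 280 and 30 to 4874. At 24 h 54.5% of called genes were higher, and 68.3% with library totals, which moved the median of all genes to 0.17 (log2). At 2 h the share was 66.5%, and 54.5% with upper-quartile scaling, and for the interaction 59.1% and 81.8%. The causes were not tested. Members near the floor of 3 counts are limited by depth.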
